A study of Mus musculus with 4 samples.

Results

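Muscle-derived stem cells (MDSCs) from Oct4 transgenic mice were set directly against MDSCs from myostatin knockout (Mst KO) mice, with 1 membrane array for each, and WT was left out of the ratios. All 268 genes of the array entered, so none was chosen by its value, and 2 of the 4 arrays of the study were compared. Both cultures came from hind-limb muscle of male mice on the C57BL/6J background and were obtained by preplating, in which slowly adhering cells are kept. The Oct4 transgenic mice carry the OCT4 promoter plus a reporter. Which reporter, the length of the promoter, the age of the mice and the passage of the cells are not given in the sources used here. The Mst KO mice are Mst-/- and were 12 to 16 weeks old, and their MDSCs were used at passages 14 to 28. Cells were grown in DMEM with 20% fetal bovine serum until nearly confluent, and RNA pooled from 3 T25 flasks was put on each array. The 2 other arrays, of mdx MDSCs (C57BL/6/10ScSn-Dmdmdx, dystrophin-deficient) and WT MDSCs (C57BL/6J), are used here only to place the Oct4 transgenic and Mst KO values. As each MDSC type has 1 array, the spread between cultures is unknown, no test was run, and every ratio compares these arrays and not the genotypes in general.

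Oct4, encoded by Pou5f1, is a transcription factor that maintains the pluripotent state of embryonic stem cells, and its promoter joined to a reporter is used to mark cells in which the gene is active. Myostatin is a secreted member of the TGF-beta family that limits skeletal muscle growth, and its loss in mice gives enlarged muscles. MDSCs are a slowly adhering fraction of muscle cells that can enter myogenic, osteogenic, adipogenic and other lineages in culture. Neither genotype can be checked on this array. The Pou5f1 probe reads the gene and not the reporter, and myostatin itself is not analysed here.

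The promoter of the gene that defines the transgene is shown first, with the promoter of Snai1, a transcriptional repressor whose value was over 4-fold apart. Both windows run from 250 bases before to 50 bases after the RefSeq start site in the mouse build GRCm38.p6, at chr17:35505782-35506081 for Pou5f1 and chr2:167537945-167538244 for Snai1, each on the plus strand. Capitals mark a GC box in Pou5f1 and an E-box in Snai1.
Pou5f1: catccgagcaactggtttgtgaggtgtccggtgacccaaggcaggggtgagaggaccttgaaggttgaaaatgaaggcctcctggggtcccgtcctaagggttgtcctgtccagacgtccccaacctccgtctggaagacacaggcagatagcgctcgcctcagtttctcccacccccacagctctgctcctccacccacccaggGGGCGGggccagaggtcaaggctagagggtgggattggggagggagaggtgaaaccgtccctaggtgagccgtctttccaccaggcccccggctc
Snai1: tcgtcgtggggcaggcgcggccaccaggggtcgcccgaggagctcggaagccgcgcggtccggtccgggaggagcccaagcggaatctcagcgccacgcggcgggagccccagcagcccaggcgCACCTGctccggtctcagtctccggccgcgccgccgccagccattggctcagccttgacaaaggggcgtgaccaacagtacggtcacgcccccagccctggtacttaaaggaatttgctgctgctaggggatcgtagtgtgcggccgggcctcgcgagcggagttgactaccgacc
The GC box, GGGCGG, starts at position -45 of Pou5f1 and was the only match in that window when both strands were searched. GC boxes are bound by Sp-family factors. The E-box, CAGGTG, was read on the minus strand as CACCTG at position -126 of Snai1, and its letters are those bound by Snail-family repressors. These letters are common: 11714 of 32851 RefSeq promoter windows of this length (35.7%) held the GC box and 6640 (20.2%) held the E-box. A match describes the letters and not a bound site. The transgenic construct may hold another stretch of the promoter than the one printed.

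Besides 14 control spots, the array has 274 gene spots. Raw intensity ran from 209 to 58764 on the Oct4 transgenic array and from 189 to 61071 on the Mst KO array. The authors' normalized intensity is the spot minus the lowest spot of the array, divided by 1 factor, which was 297 for Oct4 transgenic and 363 for Mst KO. The authors' software called 130 genes (48.5%) present on the Oct4 transgenic array and 133 genes (49.6%) on the Mst KO array. The dimmest present gene measured 0.828 on the Oct4 transgenic array and 0.753 on the Mst KO array. Genes called absent reached 1.82 and 0.847 in the same order, so the call did not follow the normalized value alone. The negative control spots lay at 0.222 to 0.841 on the Oct4 transgenic array and at 0.383 to 0.733 on the Mst KO array. Gapdh, Ppia and B2m have 3 spots each, and their mean SD between spots was 0.06 on the log2 scale. All other genes have 1 spot, so their error within an array is unknown.

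Of the 268 genes, 142 were present on at least 1 of the arrays and were compared, 121 of them on both, 9 on the Oct4 transgenic array alone and 12 on the Mst KO array alone. At a threshold of 2-fold, 14 genes (9.86%) were higher and 11 genes (7.75%) were lower in Oct4 transgenic than in Mst KO MDSCs. The other 117 (82.4%) lay within 2-fold. The median log2 ratio of Oct4 transgenic over Mst KO was -0.04, with quartiles of -0.36 and 0.51. Over the 142 genes the log2 intensities gave r = 0.84 and rho = 0.85. These are across genes, which are not replicates, and both arrays share one set of probes.

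**Figure D1:**
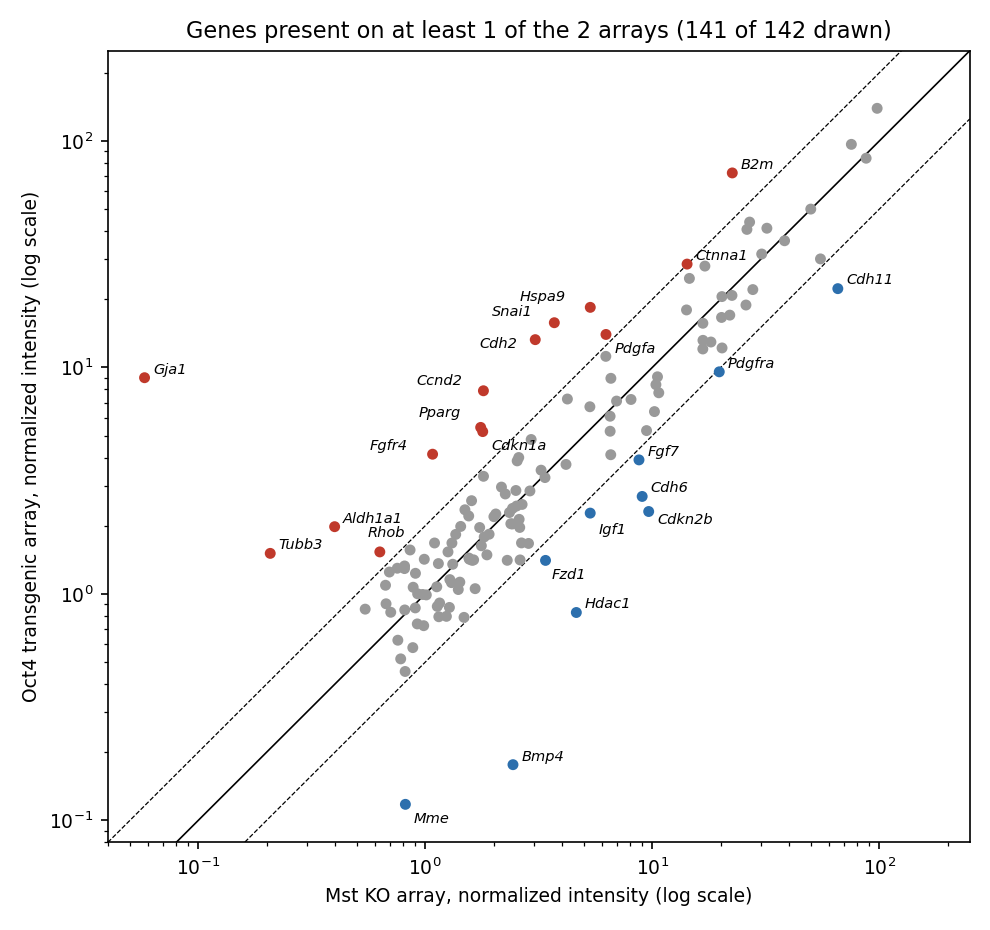
Normalized intensity of 141 of the 142 genes present on at least 1 array, with the Oct4 transgenic array on the y axis and the Mst KO array on the x axis, both on log scales. The solid line marks equal values and the dashed lines 2-fold; the 14 red genes were higher and the 10 blue genes lower in Oct4 transgenic MDSCs, and Gja1 lies farthest from the line.

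The balance of higher and lower genes depended on the scaling. All 5 housekeeping genes had the higher value on the Oct4 transgenic array under the deposited scaling, and all but B2m had the lower one there when scaled to the 5 together. Gapdh, a glycolytic enzyme, measured 139 ± 3.87 in Oct4 transgenic and 97.7 ± 0.552 in Mst KO MDSCs (SD over 3 spots of 1 array each). Ppia, a prolyl isomerase, measured 96.5 ± 2.36 in Oct4 transgenic and 75.3 ± 3.75 in Mst KO MDSCs on the same footing. Hsp90ab1, a chaperone, measured 43.8 in Oct4 transgenic and 26.8 in Mst KO MDSCs, and the ribosomal and ubiquitin gene Rps27a measured 24.7 and 14.6 in the same order. B2m, the light chain of MHC class I, was the one member past 2-fold, at 72.2 ± 4.10 in Oct4 transgenic and 22.5 ± 1.46 in Mst KO MDSCs (SD over 3 spots of 1 array each). The ratio of B2m was 3.21-fold, and its spots did not overlap, the lowest being 67.7 in Oct4 transgenic and the highest 24.2 in Mst KO MDSCs. B2m came within 2-fold (log2 ratio of 0.88) when scaled to the 5 housekeeping genes, a set that holds B2m itself. Scaled to the 5 housekeeping genes together, all log2 ratios moved by -0.80. The split then became 7 genes higher and 53 lower, so that 11.7% of the calls were higher against 56% with the deposited scaling. Scaled to Gapdh alone, with a shift of -0.51, the split was 11 higher and 28 lower (28.2% higher). In either case all 11 lower genes were among those lower, which a downward shift of every ratio fixes in advance. Median scaling (shift of -0.12) also moves every ratio down, so these scalings could remove higher genes but not lower ones. Under each of the 8 other scalings and backgrounds tried, 4 of the higher genes (Gja1, Snai1, Cdh2 and Ccnd2) and 8 of the lower genes (Bmp4, Hdac1, Cdkn2b, Cdh6, Cdh11, Fzd1, Igf1 and Fgf7) stayed at least 2-fold apart in the same direction.

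Under the deposited scaling the stem cell genes lay within 2-fold. Pou5f1 measured 12.1 in Oct4 transgenic and 16.7 in Mst KO MDSCs (raw 3792 and 6248), a log2 ratio of -0.47, which lies within 2-fold and reached -1.27 when scaled to the housekeeping genes. It was present on both arrays. Of 17 pluripotency and self-renewal genes, 8 were present and none of them was past 2-fold under that scaling. Their median log2 ratio was -0.10, against -0.04 over all genes compared. Scaled to the 5 housekeeping genes, Pou5f1, Myc and Tert were lower in Oct4 transgenic MDSCs, 37.5% of the 8, where 53 of all 142 genes were lower. The median of the 8 was then -0.90, against -0.85 over all genes. Myc, a growth-promoting transcription factor, measured 12.9 in Oct4 transgenic and 18.1 in Mst KO MDSCs. The alkaline phosphatase genes Akp2 (now Alpl) and Akp5 (now Alppl2) measured 7.10 and 1.42 in Oct4 transgenic against 6.96 and 1.56 in Mst KO MDSCs. Utf1, a chromatin factor of undifferentiated embryonic cells, measured 1.30 in Oct4 transgenic and 0.753 in Mst KO MDSCs, and Lif, a cytokine that supports self-renewal of mouse embryonic stem cells, measured 1.23 and 0.906 in the same order. Tert, the catalytic subunit of telomerase, was called absent in Oct4 transgenic at 0.724 and present in Mst KO MDSCs at 0.984. Nanog, Sox2 and Zfp42, which belong to the embryonic stem cell circuit with Oct4, were absent on both arrays. Nanog measured 0.0634 in Oct4 transgenic and 0.105 in Mst KO MDSCs, and Sox2 measured 0.636 in Oct4 transgenic and 0.606 in Mst KO MDSCs.

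The probe furthest apart was that of Gja1, a widely expressed connexin of gap junctions, and its distance came from the Mst KO array. Gja1 measured 9.01 in Oct4 transgenic, 0.0581 in Mst KO, 5.77 in mdx and 16.1 in WT MDSCs, and was called absent only in Mst KO. The Mst KO spot read a raw 210 beside a local background of 209. Taken against the lowest present value of the Mst KO array, Gja1 was at least 11.95-fold higher in Oct4 transgenic MDSCs. Such limits hold for the deposited scaling. No other connexin present was higher. Of 15 connexin genes, 9 were present, and the median of their log2 ratios was -0.06. Gja4, a connexin known from endothelium, measured 83.9 in Oct4 transgenic and 87.4 in Mst KO MDSCs, and Gjb2 measured 2.04 and 2.42 in the same order.

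The cadherins, which join cells to their neighbours, did not move as a family. Cdh2 (N-cadherin), found in muscle precursors and neural cells, measured 13.3 in Oct4 transgenic, 3.05 in Mst KO, 2.54 in mdx and 6.55 in WT MDSCs, and was 4.35-fold higher in Oct4 transgenic than in Mst KO MDSCs. Cdh11 (OB-cadherin), typical of mesenchymal cells and osteoblasts, measured 22.3 in Oct4 transgenic, 65.6 in Mst KO, 68.7 in mdx and 7.39 in WT MDSCs. Cdh6 (K-cadherin) measured 2.69 in Oct4 transgenic, 9.02 in Mst KO, 9.83 in mdx and 2.52 in WT MDSCs. Cdh11 was 2.95-fold and Cdh6 3.35-fold lower in Oct4 transgenic than in Mst KO MDSCs. For both, the Mst KO and mdx values lay near each other at the top and the Oct4 transgenic and WT values lay below them, whereas for Cdh2 the Oct4 transgenic value stood above all others. Cdh15 (M-cadherin), of satellite cells and myoblasts, measured 1.06 in Oct4 transgenic and 1.66 in Mst KO MDSCs, within 2-fold. Ctnna1 (alpha-catenin), which links cadherins to actin, measured 28.6 in Oct4 transgenic and 14.2 in Mst KO MDSCs. At 2.01-fold it was the last gene past the threshold, and it came within 2-fold under each of the other scalings. Ctnnb1 (beta-catenin) measured 40.7 in Oct4 transgenic and 26.1 in Mst KO MDSCs, within 2-fold. The list of cadherins and catenins also holds the adhesion genes Cd44 and Ncam1. Of its 18 genes, 9 were present, 2 were higher, 2 lower and 5 within 2-fold. This is 44.4% past 2-fold, against 17.6% over all genes compared. The median log2 ratio of the 9 was 0.64 against -0.04 over all genes. Scaled to the 5 housekeeping genes, it was -0.16 against -0.85 over all genes. With background correction left out as well, it was -0.20 against -0.74.

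Snai1 and Snai2 encode zinc-finger repressors of epithelial genes such as E-cadherin. Snai1 measured 15.8 in Oct4 transgenic, 3.70 in Mst KO, 4.81 in mdx and 3.71 in WT MDSCs, so that the other 3 arrays lay close together and the Oct4 transgenic array stood 4.26-fold above Mst KO. Snai2, in contrast, measured 31.7 in Oct4 transgenic and 30.3 in Mst KO MDSCs. Cdh1 (E-cadherin) was absent on both arrays, at 0.356 in Oct4 transgenic and 0.240 in Mst KO MDSCs. Hdac1, a histone deacetylase that acts in repressor complexes, ran the other way. It measured 0.828 in Oct4 transgenic, 4.63 in Mst KO, 3.34 in mdx and 6.10 in WT MDSCs, and was 5.59-fold lower in Oct4 transgenic than in Mst KO MDSCs by the deposited values. The Oct4 transgenic spot was the dimmest one still called present on that array, where a blank control spot read 0.841, so its level is not distinguished from background and the size of the fold is uncertain. Its paralogue Hdac2 measured 8.95 in Oct4 transgenic and 6.57 in Mst KO MDSCs, within 2-fold. Of 11 genes of chromatin and transcriptional repression, 7 were present, 1 was higher, 1 lower and 5 within 2-fold. This is 28.6% past 2-fold, against 17.6% over all genes compared.

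Of the cell cycle genes, 3 were past 2-fold. Ccnd2 (cyclin D2), which activates CDK4 and CDK6 in G1, measured 7.89 in Oct4 transgenic, 1.80 in Mst KO and 1.20 in mdx MDSCs, and was absent in WT at 0.483. It was 4.37-fold higher in Oct4 transgenic than in Mst KO MDSCs. The inhibitor Cdkn2b (p15), which blocks the kinases that cyclin D2 activates, measured 2.31 in Oct4 transgenic, 9.64 in Mst KO and 5.44 in mdx MDSCs, and was absent in WT at 0.649. It was 4.17-fold lower in Oct4 transgenic than in Mst KO MDSCs, with Mst KO the highest of the 4 arrays. The inhibitor Cdkn1a (p21), a target of p53 that is also induced when myoblasts leave the cycle, measured 5.21 in Oct4 transgenic, 1.79 in Mst KO, 2.11 in mdx and 5.59 in WT MDSCs. It was thus 2.91-fold higher in Oct4 transgenic than in Mst KO MDSCs, with Oct4 transgenic near WT and Mst KO near mdx. It came within 2-fold when scaled to either set of housekeeping genes (all 5, or the 4 without B2m). The other D-type cyclins lay within 2-fold, Ccnd1 at 1.83 in Oct4 transgenic and 1.36 in Mst KO MDSCs and Ccnd3 at 7.73 and 10.7 in the same order. Cdk4, their kinase partner, measured 36.2 in Oct4 transgenic and 38.2 in Mst KO MDSCs, and Cdkn2a, which lies beside Cdkn2b in the genome, measured 2.19 and 2.01 in the same order. Of 17 cell cycle genes, 14 were present, 2 were higher, 1 lower and 11 within 2-fold. The 21.4% past 2-fold is near the 17.6% over all genes compared. The median log2 ratio of the 14 was 0.28 and turned below 0 when scaled to Gapdh or to either set of housekeeping genes. The lowest, -0.53, came with the 5 housekeeping genes, where the median over all genes compared was -0.85.

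Growth factor genes with a lower value in Oct4 transgenic MDSCs included a known muscle growth factor. Igf1, which promotes myoblast proliferation and differentiation, measured 2.27 in Oct4 transgenic, 5.33 in Mst KO, 4.91 in mdx and 4.24 in WT MDSCs, and was 2.34-fold lower in Oct4 transgenic than in Mst KO MDSCs. Fgf7, made by mesenchymal cells and acting on epithelia, measured 3.91 in Oct4 transgenic, 8.74 in Mst KO, 8.28 in mdx and 4.56 in WT MDSCs. For Igf1 the Oct4 transgenic array stood alone below the others, whereas for Fgf7 it lay near WT. Pdgfra, the receptor that marks fibro-adipogenic mesenchymal cells of muscle, measured 9.56 in Oct4 transgenic, 19.7 in Mst KO, 37.5 in mdx and 2.90 in WT MDSCs. It was 2.06-fold lower in Oct4 transgenic than in Mst KO MDSCs, and -0.99 on the log2 scale with quantile normalization. Its ligand Pdgfa measured 13.98 in Oct4 transgenic, 6.25 in Mst KO, 7.05 in mdx and 6.97 in WT MDSCs, so ligand and receptor differed in opposite directions. The log2 ratio of Pdgfa came within 2-fold when scaled to Gapdh (0.65) or to the 5 housekeeping genes (0.36). The ligand Pdgfb measured 13.2 in Oct4 transgenic and 16.7 in Mst KO MDSCs, within 2-fold. Fgfr4, an FGF receptor of myogenic cells, measured 4.14 in Oct4 transgenic, 1.08 in Mst KO, 1.54 in mdx and 1.15 in WT MDSCs. It was 3.84-fold higher in Oct4 transgenic than in Mst KO MDSCs, and Fgfr1, Fgfr2 and Fgfr3 were absent on both arrays. Without background correction and scaled to the 5 housekeeping genes, Fgfr4 came within 2-fold (log2 ratio of 0.80). Of 32 growth factor and receptor genes, 12 were present, 2 were higher, 3 lower and 7 within 2-fold. This is 41.7% past 2-fold, against 17.6% over all genes compared. The median log2 ratio of the 12 was -0.33 against -0.04 over all genes.

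Of the 4 mesenchymal markers chosen, Cdh11 and Pdgfra were past 2-fold, and Col1a1 and Cxcl12 lay within it under the deposited scaling. Fgf7, which was lower, and Cdh2 and Snai1, which were higher, are outside this marker set. Col1a1, the main chain of type I collagen, measured 30.1 in Oct4 transgenic and 55.0 in Mst KO MDSCs, and the chemokine gene Cxcl12 measured 6.38 and 10.2 in the same order. Scaled to Gapdh alone, where 28 of all 142 genes compared were lower, both passed 2-fold. So did Spp1 (osteopontin), which measured 12.2 in Oct4 transgenic and 20.3 in Mst KO MDSCs. The summed intensity of the 4 mesenchymal markers Pdgfra, Col1a1, Cdh11 and Cxcl12, all present on both arrays, was 68.4 in Oct4 transgenic and 151 in Mst KO MDSCs. In such bulk RNA, fewer cells of a type and less RNA per cell cannot be told apart, and the part of cell makeup in the other differences was not tested. Of 8 cartilage, bone and matrix genes, 5 were present, all within 2-fold, and the median of their log2 ratios was -0.71. Col2a1, Col9a1 and Acan, the defining cartilage genes, were called absent on both arrays. Acan nevertheless measured 1.82 in Oct4 transgenic and 0.847 in Mst KO MDSCs, above the dimmest present gene of each array.

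Among the myogenic genes only Igf1, described above, passed 2-fold under the deposited scaling. Myod1, the regulator that commits cells to the muscle lineage, measured 1.68 in Oct4 transgenic and 2.65 in Mst KO MDSCs. Actc1 (cardiac alpha-actin, also made in early myotubes) measured 5.23 in Oct4 transgenic and 6.52 in Mst KO MDSCs. Values of Myf5, another commitment factor, were 2.48 in Oct4 transgenic and 2.67 in Mst KO MDSCs, and those of Des (desmin, the muscle intermediate filament) were 6.09 and 6.52 in the same order. Of 10 genes of skeletal myogenesis, 8 were present, of which 7 lay within 2-fold. Their median log2 ratio was -0.49 against -0.04 over all genes. No scaling or background turned its sign, but each moved the median over all genes down (shifts of -0.02 to -0.80). The unchanged sign is therefore no test of this median. Scaled to Gapdh, Myod1, Cdh15 and Spp1 were lower as well, and scaled to the 5 housekeeping genes so was Actc1, with a median of -1.29 against -0.85 over all genes. Of all 142 genes compared, 28 were lower with Gapdh and 53 with the 5 housekeeping genes. Myf6 and Mef2a were absent on both arrays. The 4 MDSC markers on the array, Cd44, Pou5f1, Des and Myod1, were present on both, and summed to 23.1 in Oct4 transgenic and 27.7 in Mst KO MDSCs. The brightest, Pou5f1, made 12.1 and 16.7 of these sums, and Cd44 alone had the higher value in Oct4 transgenic MDSCs. Ly6a (Sca1) and Cd34 are not analysed here.

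The BMP, Wnt and Notch pathways had at most 1 gene each past 2-fold under the deposited scaling, and no hedgehog gene was present to compare. With few genes present, 1 gene made 16.7% of the BMP list and 12.5% of the Wnt list, near the 17.6% over all genes compared. Bmp4, a ligand of the TGF-beta family that drives osteogenic and other fates, was called absent in Oct4 transgenic at 0.176 and present in Mst KO at 2.43. It was absent in mdx at 0.654 and present in WT MDSCs at 0.843, so that Mst KO was the highest of the 4 arrays and the order of the undetected values is not known. Taken against the lowest present value of the Oct4 transgenic array, Bmp4 was 2.94-fold lower in Oct4 transgenic than in Mst KO MDSCs. That limit is not a strict bound, as a gene called absent reached 1.82 on that array. Its receptors lay within 2-fold, with Bmpr1a at 8.39 in Oct4 transgenic and 10.4 in Mst KO MDSCs and Bmpr2 at 20.5 and 20.3 in the same order. Only 6 of the 18 BMP, GDF and TGF-beta genes were present. Scaled to the 5 housekeeping genes, Bmp2 and Bmpr1a were lower too, where 53 of all 142 genes compared were lower. The median log2 ratio of the 6 was -0.14 and became 0.05 with undetected values at the lowest present value.

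Fzd1, a Wnt receptor, measured 1.41 in Oct4 transgenic, 3.39 in Mst KO, 3.53 in mdx and 2.76 in WT MDSCs, and was 2.41-fold lower in Oct4 transgenic than in Mst KO MDSCs. The 7 other Wnt pathway genes present lay within 2-fold. They included Gsk3b, the kinase that marks beta-catenin for breakdown, at 2.44 in Oct4 transgenic and 2.52 in Mst KO MDSCs, and the scaffold Apc at 1.68 and 1.10 in the same order. The Wnt list, with 8 of 12 genes present, had a median log2 ratio of 0.40. It turned below 0 when scaled to Gapdh or to either set of housekeeping genes. The lowest, -0.41, came with the 5 housekeeping genes, where the median over all genes compared was -0.85. The Notch ligands, receptors and proteases, with 10 of 14 genes present, had none past 2-fold and a median of -0.08. Notch1 measured 0.912 in Oct4 transgenic and 1.16 in Mst KO MDSCs, and Notch2 measured 2.13 and 2.59 in the same order. Adam17, a protease that can cleave Notch, measured 5.26 in Oct4 transgenic and 9.43 in Mst KO MDSCs, and the ligand Jag1 measured 6.70 and 5.31 in the same order. Among 15 nuclear effectors and modifiers of Notch, 10 were present and Hdac1 alone passed 2-fold. Rbpj, the DNA-binding partner of cleaved Notch, measured 17.0 in Oct4 transgenic and 21.9 in Mst KO MDSCs, and its target Hes1 measured 1.68 and 1.31 in the same order. Scaled to the 5 housekeeping genes, 4 of the 10 ligands, receptors and proteases (Adam17, Notch1, Notch2 and Notch3) and 5 of the 10 effectors and modifiers (Hdac1, Numb, Crebbp, Rbpj and Dtx1) were lower, and the medians were -0.88 and -0.99. Over all genes compared, 53 of 142 were lower under that scaling, and the median was -0.85. The hedgehog ligands Shh, Ihh and Dhh were absent on both arrays.

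**Figure D2:**
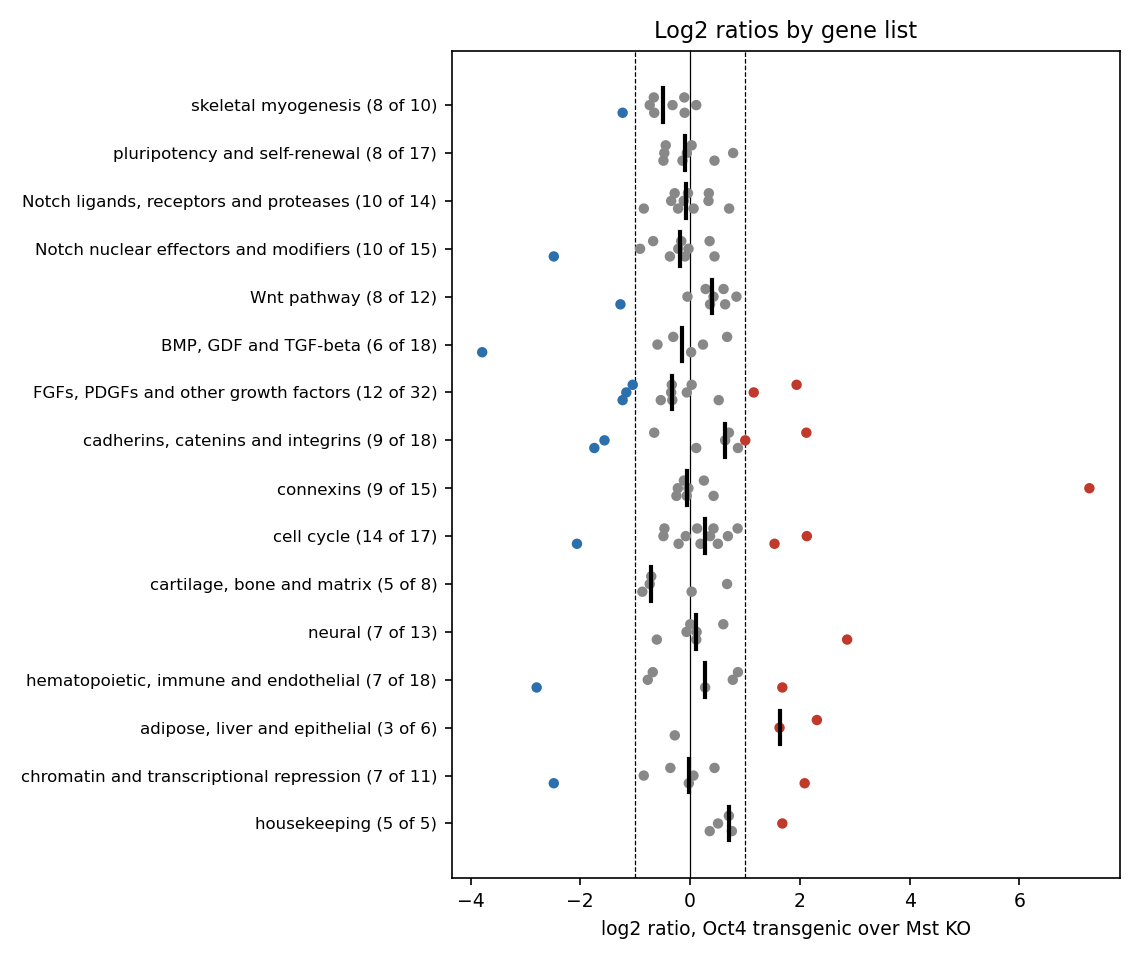
Log2 ratio of Oct4 transgenic over Mst KO on the x axis for the present genes of 16 gene lists, with black bars at the list medians, dashed lines at 2-fold and the genes present of those on the array in parentheses. Most lists hold at most 1 red (higher) and 1 blue (lower) gene among grey ones. The medians of the Wnt, cell cycle, cadherin, neural, hematopoietic and housekeeping lists, here above 0, fall below it under scaling to 5 housekeeping genes. The median over all genes compared is then -0.85.

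Pparg, Aldh1a1 and Tubb3, from the lists of other lineages, were higher in Oct4 transgenic MDSCs. Pparg, the nuclear receptor that drives adipogenesis, measured 5.43 in Oct4 transgenic, 1.75 in Mst KO, 1.49 in mdx and 1.13 in WT MDSCs, and was 3.10-fold higher in Oct4 transgenic than in Mst KO MDSCs. It came within 2-fold when scaled to the 5 housekeeping genes. Ppard, a related receptor, measured 1.25 in Oct4 transgenic and 0.695 (absent) in Mst KO MDSCs, within 2-fold. Aldh1a1, which makes retinoic acid and is used as a stem cell marker, measured 1.98 in Oct4 transgenic and was absent on the other arrays, at 0.399 in Mst KO, 0.316 in mdx and 0.654 in WT MDSCs. Tubb3, the neuronal beta-tubulin, measured 1.51 in Oct4 transgenic and was likewise absent elsewhere, at 0.208 in Mst KO, 0.562 in mdx and 0.397 in WT MDSCs. Taken against the lowest present value of the Mst KO array, Aldh1a1 was 2.63-fold and Tubb3 2.005-fold higher in Oct4 transgenic than in Mst KO MDSCs. The Tubb3 value of 1.51 lay below that of Acan, called absent on the same array at 1.82. Both Aldh1a1 and Tubb3 came within 2-fold in the setting that left out background correction and also scaled to the 5 housekeeping genes. Other neural markers did not accompany Tubb3: Nes (nestin) was absent on both arrays and S100b measured 1.08 in Oct4 transgenic and 1.12 in Mst KO MDSCs. Of 13 neural genes, 7 were present, 1 was higher and 6 lay within 2-fold. This is 14.3% past 2-fold, against 17.6% over all genes compared. Of 6 adipose, liver and epithelial genes, 3 were present, Pparg and Aldh1a1 were higher and Aldh2 lay within 2-fold. This is 66.7% past 2-fold, but of only 3 genes.

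Defining genes of blood, endothelial and epithelial cells were mostly undetected. Ptprc (CD45), of all leukocytes, was absent at 0.0804 in Oct4 transgenic and 0.505 in Mst KO MDSCs. Of 5 hematopoietic markers on the array only Cd8a was present, at 1.67 in Oct4 transgenic and 2.85 in Mst KO MDSCs, and the 5 summed to 2.25 in Oct4 transgenic and 4.10 in Mst KO MDSCs. The endothelial genes Cdh5 and Kdr and the epithelial genes Cdh1 and Krt15 were absent on both arrays. Mme (CD10), a surface peptidase of stromal and lymphoid cells, was absent in Oct4 transgenic at 0.118 and just above the detection limit in Mst KO at 0.818. In mdx it was present at 2.08 and in WT MDSCs absent at 0.148. Its deposited log2 ratio of -2.79 became 0.018 with the undetected value raised to the lowest present one, so no fold is given. Abcg2, the transporter behind the side-population phenotype, measured 7.25 in Oct4 transgenic and 4.23 in Mst KO MDSCs, and Cd44, the receptor of hyaluronan and osteopontin, measured 3.31 and 1.81 in the same order, both within 2-fold. Hspa9 (mortalin), a mitochondrial chaperone, measured 18.4 in Oct4 transgenic, 5.33 in Mst KO, 14.5 in mdx and 8.45 in WT MDSCs, and was 3.45-fold higher in Oct4 transgenic than in Mst KO MDSCs. It came just within 2-fold (log2 ratio of 0.98) when scaled to the 5 housekeeping genes. Rhob, a small GTPase of actin and vesicle traffic, measured 1.53 in Oct4 transgenic, 0.631 in Mst KO (absent), 0.426 in mdx (absent) and 1.001 in WT MDSCs. Taken against the lowest present value of the Mst KO array, Rhob was 2.03-fold higher in Oct4 transgenic than in Mst KO MDSCs. It lay within 2-fold when scaled to Gapdh or to the housekeeping genes.

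The genes past 2-fold were also set beside the mdx and WT arrays. They were picked by their ratio of Oct4 transgenic over Mst KO, which itself favours extreme values on these arrays. For 4 of the 14 higher and 3 of the 11 lower genes, the present call came from 1 of the compared arrays alone. The Oct4 transgenic array had the highest of the 4 values for 11 of the 14 higher genes, all but Gja1, Cdkn1a and Ctnna1. For 7 of them (Snai1, Cdh2, Ccnd2, Fgfr4, Pparg, B2m and Aldh1a1) it lay at least 2-fold above each of the 3 others, with absent values taken as the lowest present value of their array. Tubb3 met this only by its undetected values. Leaving aside Tubb3, the Mst KO array had the lowest value for 8 of the 14 and was at least 2-fold below each of the others for Gja1 alone. Of the 11 lower genes, the Oct4 transgenic array had the lowest value for Igf1, Fgf7, Fzd1 and Hdac1, which were present on all 4 arrays, and lay at least 2-fold below each of the others for Hdac1 alone. The Hdac1 spot was itself the dimmest present one on the Oct4 transgenic array, and its level there is not distinguished from background. The Mst KO array had the highest value for 5 of the 11 and stood at least 2-fold above the others for Bmp4 alone. For Cdh11, Cdh6, Cdkn2b and Pdgfra the Oct4 transgenic value lay between Mst KO and WT. All 4 arrays share probes and scaling rule, each is 1 culture pool, and these positions carry no test.

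**Figure D3:**
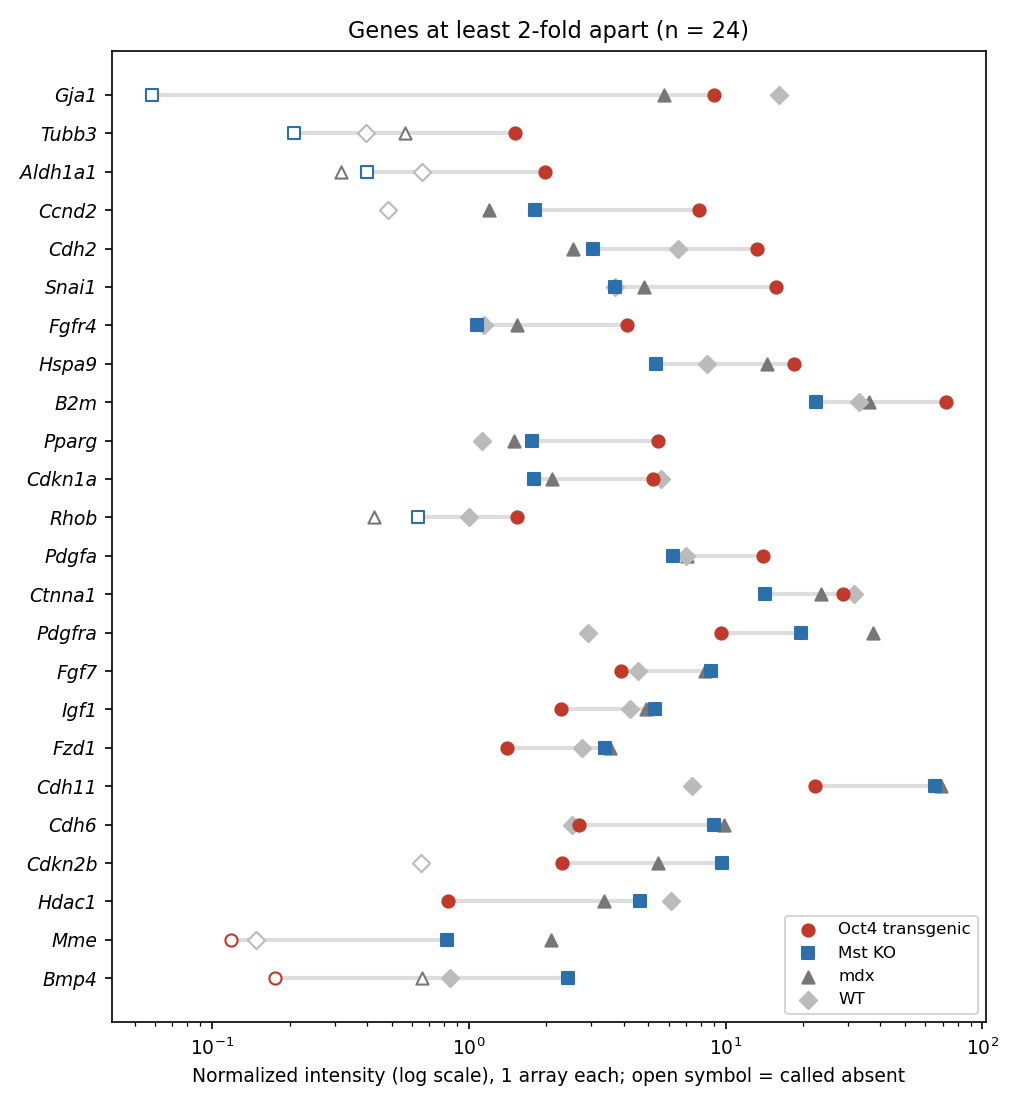
Normalized intensity on a log x axis of 24 genes at least 2-fold apart, ordered by ratio, with a symbol for each of the Oct4 transgenic, Mst KO, mdx and WT arrays and a grey bar joining Oct4 transgenic to Mst KO; open symbols were called absent. Oct4 transgenic (red) is the rightmost symbol in 11 of the upper 14 genes and the leftmost in 6 of the lower 10, of which Bmp4 and Mme were undetected there.

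**Figure D4:**
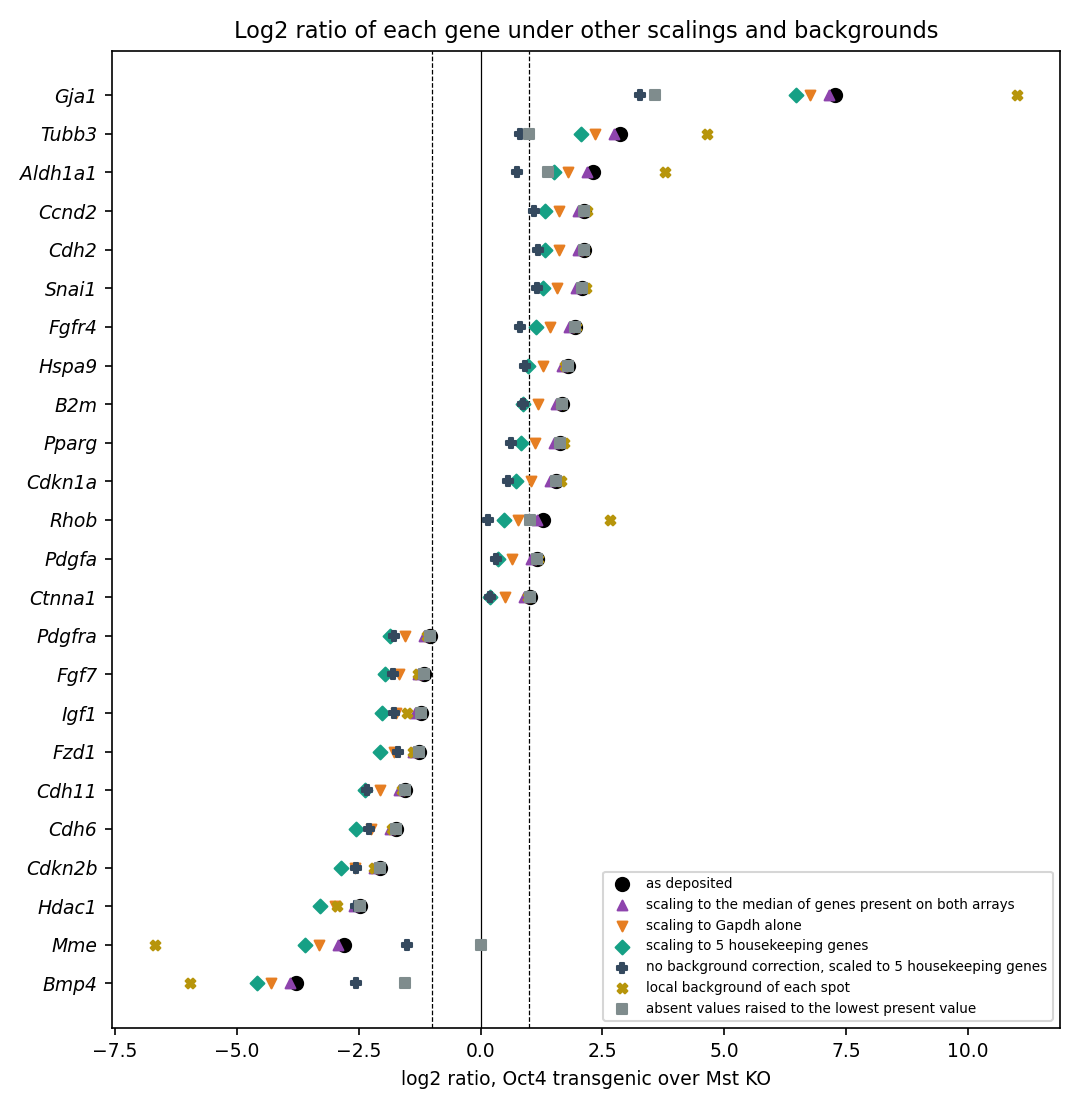
Log2 ratio of Oct4 transgenic over Mst KO on the x axis for the same 24 genes as deposited (black circles) and under 6 other scalings, backgrounds or treatments of undetected values, with dashed lines at 2-fold. Scaling to housekeeping genes shifts every gene to the left by 0.80, and the widest spreads belong to genes undetected on 1 array, such as Gja1, from 3.27 to 11.01, and Mme, whose value lies at 0.018 when the undetected spot is raised to the lowest present value.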

How the data were processed

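RNA of MDSCs was labeled with biotin and hybridised to oligonucleotide membrane arrays for genes related to stem cells, 1 array per MDSC type. The values are spot intensity, raw and normalized, deposited by the authors. The file headers give the lowest value of an array as its background and 1.5 as the threshold of the authors' other measure, the absent or present call. On both arrays the deposited value could be rebuilt by subtracting the lowest spot and dividing by the average of the 144 spots in the middle of the ranking. The paper speaks of normalization to housekeeping genes, which is tried here as an alternative. The deposited ratios to WT hold the authors' own comparisons and were not used.

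Spots of one gene were averaged and the 14 control spots left out. Genes with a present call on either array, or on both, were given a ratio of Oct4 transgenic over Mst KO and counted at 2-fold. Limits set an absent value to that of the dimmest present gene of its array. They are not strict bounds, as some genes called absent measured more. With 1 array per MDSC type no test was run, and the number of arrays limits the precision. Named genes are members of 17 gene lists, and genes past 2-fold, since fewer than the planned 15 passed on either side. The values of 1 gene, included in the counts and medians, are not reported here or drawn. The members and lists were chosen with earlier results of these data known. Alternatives were other scalings (median, Gapdh, 5 housekeeping genes, quantile), other backgrounds (none, local), other filters, absent values raised, the series table, and thresholds of 1.5-fold and 3-fold. Scaling to 4 housekeeping genes without B2m was chosen after seeing the data. No spot was marked for bleeding (0 spots). The accessions of 257 genes matched RefSeq (GRCm38.p6), where 14 have a newer symbol. The calculation was tested on simulated data. Python 3.11.15, numpy 2.4.6, pandas 2.3.3 and matplotlib 3.10.9 were used.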

Additional observations from a re-analysis of the deposited data

How the results depend on the processing

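The count of 11 lower genes moved most with the scaling, and that of 14 higher genes with the threshold and with background correction left out together with housekeeping scaling. Scaled to Gapdh alone, 11 were higher and 28 lower. Scaled to 5 housekeeping genes, 7 were higher and 53 lower, and to the 4 without B2m (chosen after seeing the data) 10 were higher and 34 lower. Without background correction and scaled to the 5 housekeeping genes, 4 were higher and 35 lower. With no filter on absent genes, 24 of 266 were higher and 36 lower. At 1.5-fold 34 were higher and 26 lower, and at 3-fold 10 were higher and 5 lower. The other settings moved each count by 1.5 times or less, namely median scaling (13 and 13, shift of -0.12), quantile normalization (13 and 11), a local background (19 and 13 of 140 genes), genes present on both arrays (10 and 8 of 121), raised absent values (14 and 9) and the series table (14 and 11). Of the 25 genes, only Mme turned sign, to 0.018 on the log2 scale with absent values raised. Of genes within 2-fold, 60 turned sign under some alternative. Signal limits the dim genes: of the 142, 9 were detected on the Oct4 transgenic array alone and 12 on the Mst KO array alone. No paired analysis was possible because each MDSC type has 1 array.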
